A study of Homo sapiens with 8 samples.

Results

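Heat shock chaperone genes were followed in HepG2 cells that received a GRHL2 plasmid. The set held 10 genes of the HSP70, HSP90, HSP110, small heat shock and BAG families and their transcription factor, namely HSPA6, HSPA8, HSPA1A, HSPA1B, HSPB8, HSPB1, HSPH1, HSP90AA1, BAG3 and HSF1. Of these, 8 had a row among the 17561 genes of the expression table. HSPA1A and HSPA1B were not analysed here. HSPA6 and HSPB8 were selected on their measured values in the comparison described here, and the others as members of the same families. The difference between plasmids is therefore given for these genes as a description, with no test.

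HepG2 is a human liver tumour cell line. Its cells were transiently transfected (JetPrime reagent) and RNA was collected 48 h later, with 4 libraries for each plasmid that the study calls independent biological replicates. The pGRHL2 group received a construct in which the EEF1A1 promoter drove a flag-tagged GRHL2 cDNA, with enhanced GFP made from the same bicistronic plasmid. The pcDNA3 group received the pcDNA3 vector. The plasmids thus differed in backbone, promoter, GFP and GRHL2 itself, and the parts these play in any difference cannot be told apart. Cells of both groups grew on gelatin in William's E medium with serum, glutamine, antibiotics, insulin and dexamethasone, and the medium was changed a day after transfection. GRHL2 encodes a grainyhead-like transcription factor of epithelia, and the study asked which genes respond to it in hepatocyte-like cells.

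The transfected gene followed the labels, since GRHL2 ranged from 16.2 to 16.9 in pGRHL2 libraries and from 6.61 to 7.25 in pcDNA3 libraries on the log2 scale. All 10 hepatocyte and hepatoma markers examined were in the table, at mean log2 values of 8.06 to 17.1, and 0 of them were called different. Their summed level ranged from 18.2 to 18.4 in pGRHL2 and from 18.1 to 18.3 in pcDNA3. Of the markers of other cells, 2 of 6 for fibroblasts, 2 of 5 for leukocytes, 2 of 4 for endothelium and 5 of 5 for cholangiocytes were in the table, and 0 were called. For cholangiocyte markers the summed level was 14.1 to 14.4 in pGRHL2 and 14.0 to 14.4 in pcDNA3, and their part in the results below was not tested. The study names KRT7, which is among these markers, as a gene induced by GRHL2, with another test made on read counts. A marker not called here is thus not shown to be unchanged. The summed leukocyte markers ran from 13.2 to 13.4 and from 13.1 to 13.3, with PTPRC, CD68 and CD3E not analysed, fibroblast markers from 6.49 to 6.62 and from 6.38 to 6.51, and endothelial markers from 5.52 to 5.61 and from 5.49 to 5.59. The 2 leukocyte markers had mean log2 values of 4.65 and 13.3, so the higher gene carries that sum. Mean log2 values of single cholangiocyte markers ran from -1.07 to 13.9. Library medians over all genes lay between 6.71 and 6.73. Averaging the pGRHL2 and pcDNA3 libraries of one number gave the same value for all 4 numbers, within 1e-09, in all 17561 genes. A pcDNA3 library is therefore the mirror image of its pGRHL2 partner about the mean of the gene, both groups have the same SD, and the 4 pair differences hold all the information on spread. Groups of such values fail to overlap exactly when all 4 pair differences have the same sign. Where groups are said below not to overlap, this restates the sign of the pair differences and adds nothing to them. The methods describe regularised log values divided by transcript length, but a plain quotient by a length in bases would be far smaller than the values in the table, which reach 17.3 and fall below 0. The values are read here as log2 expression scaled by length, and every log2 FC and fold rests on that reading. Regularisation shrinks differences of weakly expressed genes, so that the folds can understate their change.

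Heat shock proteins are molecular chaperones. HSP70 proteins bind exposed hydrophobic stretches of client proteins in cycles of ATP hydrolysis, HSP110 proteins and BAG proteins release the nucleotide, HSP90 matures kinases and receptors, and small heat shock proteins hold unfolding clients without ATP. HSF1 is the factor that switches many of these genes on under heat or proteotoxic stress by binding heat shock elements, which are runs of inverted GAA units. HSPB8 works in a complex with BAG3 and HSP70 that hands damaged clients to autophagy.

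HSPA6, an HSP70 that most human cells make only under stress, was the weakest of the 8 genes and showed the widest difference. On the log2 scale the pGRHL2 libraries 1 to 4 read 5.79, 5.87, 5.55 and 5.94. The pcDNA3 libraries 1 to 4 gave 4.31, 4.24, 4.56 and 4.17. The groups did not overlap, and every pGRHL2 library lay above every pcDNA3 library. The pair differences (pGRHL2 minus pcDNA3) were 1.48, 1.63, 0.99 and 1.78, a log2 FC of 1.47 ± 0.34 (SD, n = 4 pairs) or 2.77-fold. Among all 17561 genes this log2 FC ranked number 2, after the transfected gene. In pcDNA3 cells HSPA6 stood at the 34.0th percentile of expression, so the difference began from a low level. Its SD between pairs was also wide, at the 99.2th percentile of all genes. Pair 3 had the smallest difference. In mirrored pairs this also makes its pcDNA3 library the highest and its pGRHL2 library the lowest of their groups, so the values cannot show which library deviated.

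HSPA6 lies at chr1:161524540-161526894 on the plus strand (hg38, GENCODE v44), and none of its exon bases is shared with another annotated gene. Its near-identical relative HSPA7, annotated as an unprocessed pseudogene, lies nearby on the same chromosome and matched the HSPA6 transcript at 97.8% of aligned bases. Of the 150-base windows of the HSPA6 transcript, 19.8% occurred letter for letter at that other place. A read of that length inside such a window can be placed only through its mate, and HSPA7 had no row in the table, so some reads of either gene could be lost or moved between them, which was not tested.

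HSPB8, the small heat shock protein that pairs with BAG3, was also higher with pGRHL2. In order of library number, its log2 values with pGRHL2 were 9.02, 8.81, 8.97 and 9.14. With pcDNA3 they were 8.17, 8.38, 8.22 and 8.05. Here too the groups did not overlap. The pair differences were 0.86, 0.43, 0.75 and 1.09, which gave a log2 FC of 0.78 ± 0.27 (SD, n = 4 pairs) or 1.72-fold, number 8 of all genes. HSPB8 started from the 65.7th percentile of expression in pcDNA3, well above HSPA6. Pair 2 gave its smallest difference and pair 4 its largest. None of its 150-base transcript windows occurred elsewhere, and 0.586% of its exon bases are shared with another annotated gene (chr12:119171555-119224855, plus strand).

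The log2 FC of HSPA6 exceeded that of HSPB8 in each pair, by 0.62, 1.19, 0.24 and 0.68 log2 units in pairs 1 to 4. The difference between these genes was largest in pair 2, where HSPB8 was smallest, and smallest in pair 3, where HSPA6 was smallest. Pair 4 gave the largest difference for both. In bulk RNA, more cells that express a gene and more RNA per cell cannot be told apart, which holds for every value here.

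**Figure D1:**
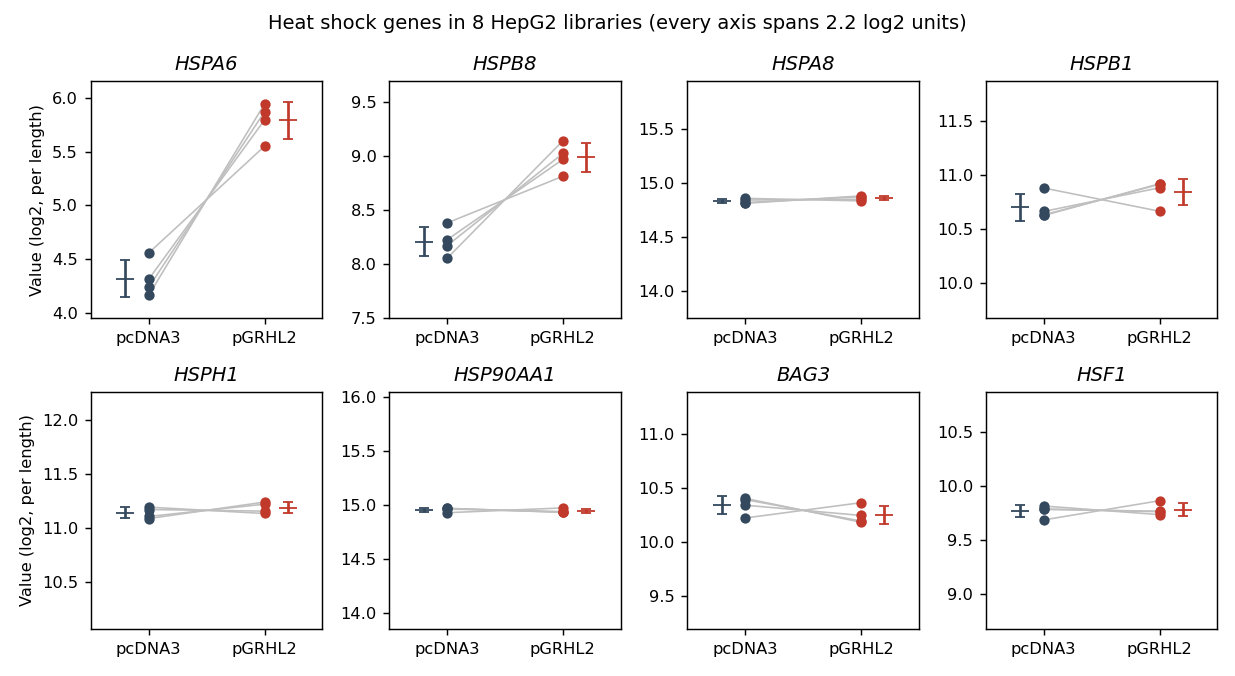
Log2 value (relative to transcript length) of each heat shock gene in 4 pcDNA3 (dark) and 4 pGRHL2 (red) libraries, with grey lines joining same-numbered libraries and bars for the mean ± SD. All panels span the same number of log2 units, and only HSPA6 and HSPB8 separate the plasmids, with means of 5.79 against 4.32 and 8.99 against 8.21.

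Of the 8 genes, 2 had higher, non-overlapping values in pGRHL2, where 13.4% of all genes did, and 0 had lower, non-overlapping values, where 10.5% of all genes did. The same 2 genes were among the 297 genes called higher across the table (limma adjusted p under 0.05, 1.69% of genes), and 0 of the 8 were among the 88 called lower (0.501%). With pair 1 left out, 1 of the 8 was called, beside 79 called higher and 8 called lower among all genes. With any other pair left out, 2 of the 8 were called, and more genes of the whole table were called higher and lower than without pair 1. HSPA6 and HSPB8 were chosen on these same values, so calls with a pair left out are no check on them. These counts describe how the genes were chosen and are not a test of the set. The median log2 FC over the 8 genes was 0.04, and it was 0.02 over the 6 genes other than HSPA6 and HSPB8, beside 0.0017 over all genes. Each of the 6 had a log2 FC within 0.15 of zero and an SD between pairs larger than its absolute log2 FC. Most genes do: of all 17561, 15906 met the first condition and 13000 the second. This does not set the 6 apart from other genes.

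HSPA8, the constitutive HSP70 that does the everyday folding work of the cytosol, was nearly level between the plasmids. It stood at 14.85, 14.84, 14.88 and 14.87 in pGRHL2 libraries and at 14.84, 14.86, 14.81 and 14.82 in pcDNA3 libraries. The groups overlapped. The mean pair difference was 0.03 ± 0.04 (SD, n = 4 pairs), which became -0.02 when trends with GC content, length and level were removed. HSPA8 was number 16 of all genes by level in pcDNA3, and 15.1% of its exon bases are shared with other annotated genes, among them small nucleolar RNA genes.

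HSP90AA1, the stress-inducible cytosolic HSP90, was the most abundant gene of the set and number 13 of the table. Its values were 14.94, 14.98, 14.93 and 14.94 with pGRHL2 and 14.96, 14.93, 14.97 and 14.97 with pcDNA3. The groups overlapped, with a log2 FC of -0.01 ± 0.04 (SD, n = 4 pairs). HSPA8 and HSP90AA1 had the narrowest spreads of the set, and their pair differences ranged from -0.02 to 0.07 and from -0.04 to 0.04.

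HSPH1, the HSP110 that recharges HSP70 with ATP, had values of 11.15, 11.13, 11.22 and 11.24 in pGRHL2 libraries against 11.17, 11.19, 11.11 and 11.09 in pcDNA3 libraries. Its log2 FC was 0.05 ± 0.10 (SD, n = 4 pairs), and the differences were positive in 2 pairs and negative in 2.

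HSPB1, the small heat shock protein known as HSP27, split by pair. It stood at 10.92, 10.89, 10.67 and 10.92 with pGRHL2 and at 10.63, 10.66, 10.88 and 10.63 with pcDNA3. Pairs 1, 2 and 4 differed by 0.29, 0.22 and 0.28, whereas pair 3 differed by -0.22. The log2 FC of 0.15 ± 0.24 (SD, n = 4 pairs) thus joined 3 similar positive differences with 1 negative one, and it was 0.27 without pair 3.

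BAG3, the co-chaperone that tethers HSP70 to HSPB8, overlapped between the plasmids. Its values were 10.24, 10.18, 10.19 and 10.36 in pGRHL2 and 10.34, 10.40, 10.39 and 10.22 in pcDNA3. The difference was negative in pairs 1 to 3 (-0.10, -0.22 and -0.20) and positive in pair 4 (0.14), for a log2 FC of -0.09 ± 0.17 (SD, n = 4 pairs), which was -0.17 without pair 4, -0.05 without pair 2 and -0.06 without pair 3. In the same pairs HSPB8 was higher with pGRHL2 each time.

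HSF1 itself, whose product is controlled largely at the protein level, had values of 9.76, 9.73, 9.86 and 9.77 with pGRHL2 and 9.79, 9.81, 9.68 and 9.78 with pcDNA3. The log2 FC was 0.01 ± 0.11 (SD, n = 4 pairs) and turned to -0.04 without pair 3, the pair in which HSF1 was higher by 0.18.

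**Figure D2:**
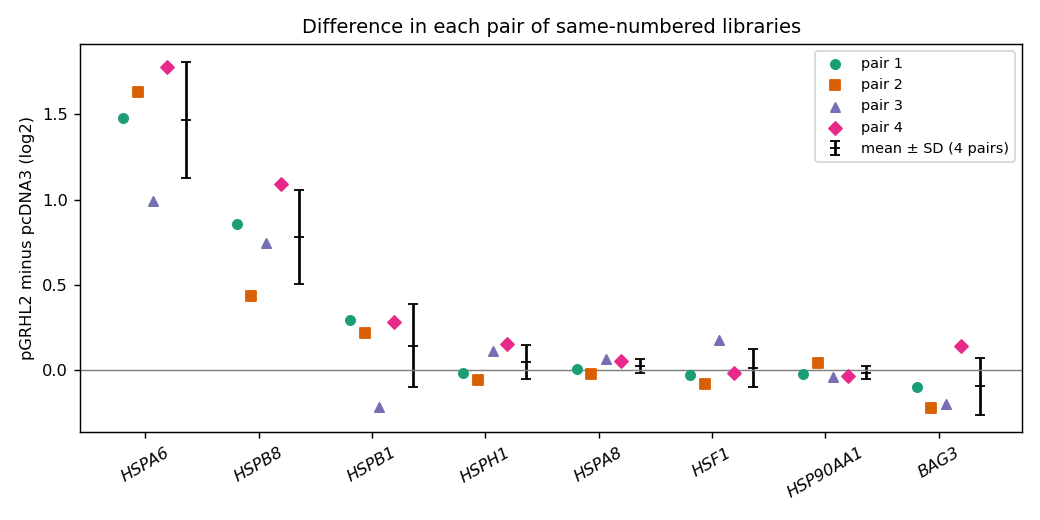
Difference in log2 value (pGRHL2 minus pcDNA3) in each of 4 pairs of same-numbered libraries, one symbol a pair, with the mean ± SD in black. HSPA6 (0.99 to 1.78) and HSPB8 (0.43 to 1.09) lie above zero in every pair, and the other genes have differences on both sides of it.

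Across the set, pair 4 gave the highest difference of a gene for 4 of the 8 genes and pair 2 the lowest for 5. In pair 4, 6 genes were higher with pGRHL2 and 2 lower, against 4 and 4 in pairs 1 and 2. The median difference over the 8 genes was 0.15 in pair 4 and -0.0040 in pair 1, while the median over all genes stayed between 0.00078 and 0.0059 in the 4 pairs. The genes of the set share libraries, so these counts describe 4 pairs and not 8 separate trials.

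By mean level in pcDNA3, on the log2 scale relative to transcript length, the order was HSP90AA1 (14.96), HSPA8 (14.83), HSPH1 (11.14), HSPB1 (10.70), BAG3 (10.34), HSF1 (9.77), HSPB8 (8.21) and HSPA6 (4.32). No neighbours in this order overlapped over the 4 libraries. In pGRHL2 the order was the same, with HSPB8 at 8.99 and HSPA6 at 5.79 still in the last places, and again no neighbours overlapped. The 2 genes with the largest differences were thus the 2 with the lowest levels in both groups. The order rests on the scaling by transcript length, whose exact form in these values is not settled.

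**Figure D3:**
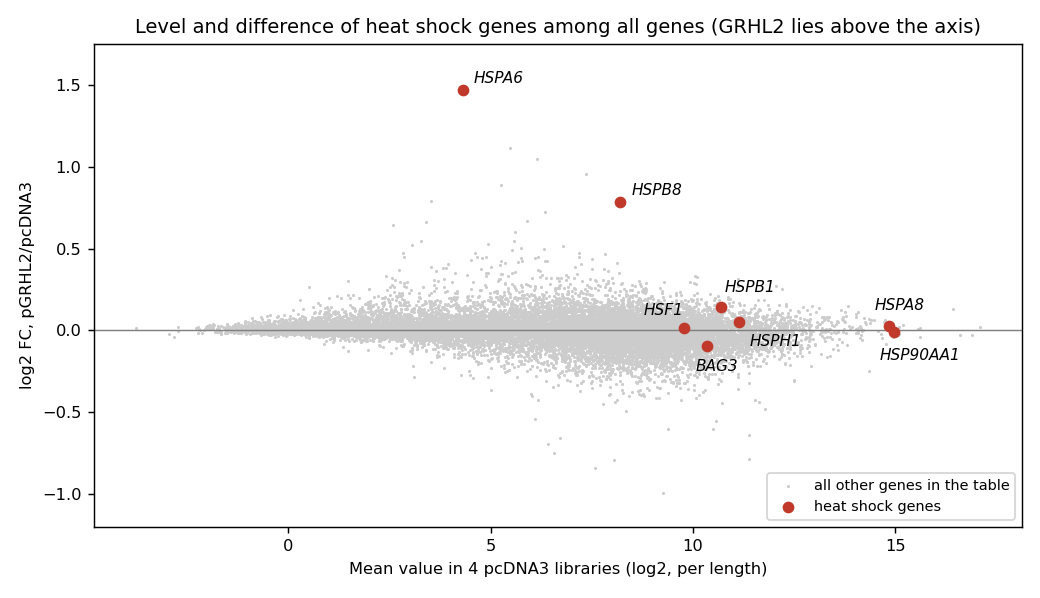
Mean log2 value in 4 pcDNA3 libraries (horizontal) against log2 FC of pGRHL2 over pcDNA3 (vertical) for all 17561 genes except GRHL2, which is off the axis. HSPA6 (4.32, log2 FC 1.47) and HSPB8 (8.21, log2 FC 0.78) stand above the grey cloud, and the other 6 genes lie inside it.

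The sequence before each gene was read from RefSeq (GRCh38.p14) as the 250 bases ahead of the annotated start. Windows were available for 9 of the 10 genes, 10 windows in all, since HSP90AA1 has 2; HSF1 had none. A heat shock element was searched as GAANNTTC or TTCNNGAA, pairs of inverted units that each read the same on both strands, and as 3 alternating units in a row, in which one pair of each kind overlaps. The whole windows of HSPA6 and HSPB8, the last 120 bases of the second HSP90AA1 window and a stretch of 30 bases of that of HSPA8 are shown because they set the genes with the largest differences beside genes with differences near zero. All are written 5′ to 3′ on the strand of the gene, with the inverted GAA and TTC units of each match in capitals. The HSPA6 window ends at the base before the gene. Those printed for HSPB8 and HSP90AA1 lie inside the annotated gene, between exons of longer transcripts. The 30 bases of HSPA8 overlap exons of other annotated HSPA8 transcripts.
HSPA6 (chr1:161524290-161524539, plus strand): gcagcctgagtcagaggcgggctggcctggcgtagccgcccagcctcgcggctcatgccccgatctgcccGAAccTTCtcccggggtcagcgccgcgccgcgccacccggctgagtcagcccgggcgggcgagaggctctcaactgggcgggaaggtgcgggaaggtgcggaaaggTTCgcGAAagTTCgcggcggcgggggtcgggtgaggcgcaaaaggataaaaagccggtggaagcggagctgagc
HSPB8 (chr12:119178681-119178930, plus strand): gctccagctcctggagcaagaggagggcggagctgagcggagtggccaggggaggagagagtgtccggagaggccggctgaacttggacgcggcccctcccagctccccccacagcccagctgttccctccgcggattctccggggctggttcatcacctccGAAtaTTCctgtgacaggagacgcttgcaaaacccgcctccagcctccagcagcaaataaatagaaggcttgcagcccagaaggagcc
HSP90AA1 (chr14:102087045-102087164, minus strand): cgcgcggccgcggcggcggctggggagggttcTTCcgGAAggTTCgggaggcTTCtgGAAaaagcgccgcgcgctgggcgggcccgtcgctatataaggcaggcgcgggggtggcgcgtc
HSPA8 (chr11:123062171-123062200, minus strand): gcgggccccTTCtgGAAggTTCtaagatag

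HSPA6 had 3 units in a row at -74 to -62 from the start and one further pair at -180 to -173. HSPB8 had a single pair, at -88 to -81. HSP90AA1 had 3 units in a row at -88 to -76 and a further pair at -68 to -61 in one of its windows and no match in the other, and HSPA8 had 3 in a row in 2 places, at -230 to -218 and at -55 to -43. HSPB1 held one pair at -182 to -175. HSPA1A and HSPA1B, which are nearly the same sequence, held one each at -106 to -99 and -105 to -98. In BAG3 and HSPH1 these letters did not occur in the window.

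Either pair was thus found in 7 of the 10 windows, beside 11.6% of the 35116 windows of all genes. The run of 3 units was found in 3 windows, beside 0.441% of all. The genes were listed as heat shock genes, so this share describes the families and not a response. Windows with 3 units in a row stood before HSPA6, with a log2 FC of 1.47, and also before HSPA8 and HSP90AA1, with log2 FC of 0.03 and -0.01. Whether these units play a part in any difference was not tested. The grainyhead-type motif AACCGGTT occurred in 0 of the 10 windows and in 0.117% of all. This exact string is so rare that its absence from 10 windows says little. TATAAA occurred in 2 (10.7% of all) and CCAAT in 4 (32.0%), while GGGCGG occurred in 9 (42.6%), counting both strands. A motif match is a string of letters and does not show that a factor binds there, and windows of this length leave out distant elements.

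**Figure D4:**
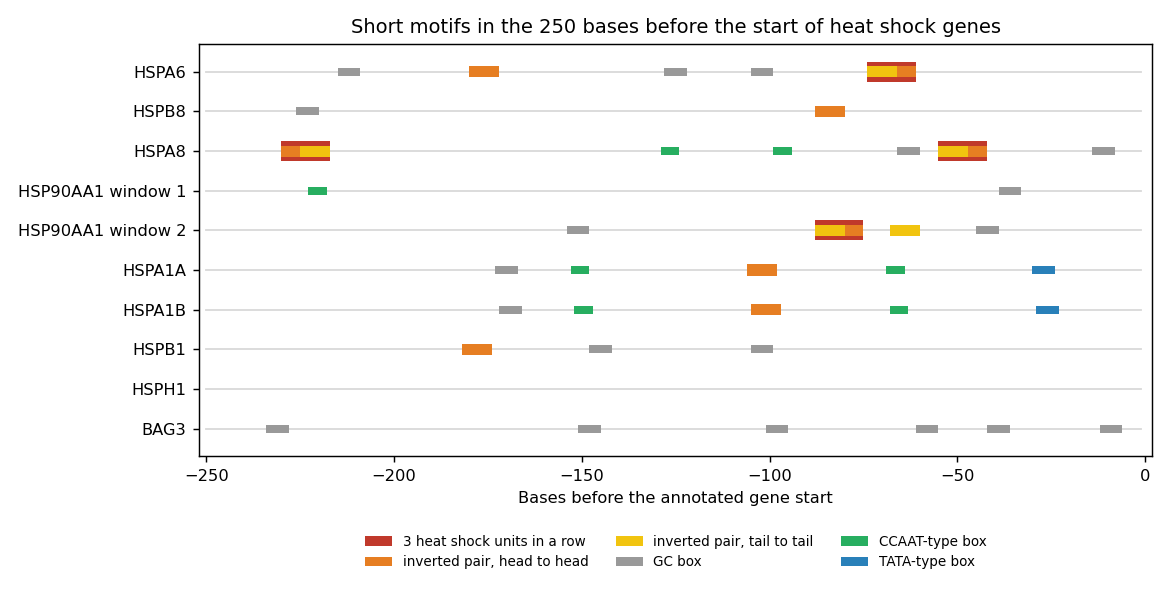
Position of short motifs in the 250 bases before the start of 9 heat shock genes, by distance from the start (horizontal); thick red bars mark 3 heat shock units in a row and thinner bars the motifs named in the key. Red bars stand before HSPA6, HSPA8 and the second HSP90AA1 window, and HSPB8 has a single inverted pair.

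Chaperone genes outside the set were grouped by family or role into 8 lists, 79 genes in all, of which 72 had a row. A gene in several lists counts in each. Of the 72, 2 rose with pGRHL2 (2.78%, beside 1.69% of all genes) and 1 fell (1.39%, beside 0.501%), by limma with the pair as a block and Benjamini-Hochberg adjustment over 17561 genes. Their median log2 FC was -0.0094.

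Among small heat shock proteins outside the set, 1 of the 6 measured rose and 0 fell, with a median log2 FC of 0.05. The gene was CRYAB, the alpha-crystallin chaperone of lens and muscle. CRYAB stood at 4.20, 4.16, 4.18 and 4.23 in pGRHL2 libraries and at 4.01, 4.05, 4.03 and 3.98 in pcDNA3 libraries, without overlap. The log2 FC was 0.18 ± 0.06 (SD over 4 pairs; adjusted p = 0.0343 by limma). Without any one pair the adjusted p rose to between 0.0748 and 0.156. CRYAB overlaps HSPB2 on the opposite strand, and counting without strand cannot tell the reads of the overlap apart.

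The genes of chaperone-assisted selective autophagy, the route that BAG3 and HSPB8 serve, gave 1 of 9 that rose and 0 that fell (median log2 FC -0.02). FLNC, the muscle filamin that this route clears when damaged, had values of 1.37, 1.43, 1.43 and 1.42 with pGRHL2 against 1.24, 1.18, 1.19 and 1.19 with pcDNA3. The groups did not overlap, giving a log2 FC of 0.21 ± 0.06 (SD over 4 pairs; adjusted p = 0.00354 by limma). With trends in GC content, length and level removed the log2 FC was 0.17 and the adjusted p 0.0563 by limma. FLNC was weakly expressed at a mean log2 value of 1.31, and an antisense gene overlaps it.

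In the list of heat shock factors and their regulators, 0 of 4 rose and 1 fell, with a median log2 FC of -0.04. HSF2, the second heat shock factor, which can form trimers with HSF1, stood at 8.29, 8.29, 8.27 and 8.30 with pGRHL2 and at 8.61, 8.61, 8.63 and 8.60 with pcDNA3. The pair differences ran from -0.36 to -0.30, with a log2 FC of -0.32 ± 0.03 (SD over 4 pairs, adjusted p = 0.0216 by limma). Variation shared by both libraries of a pair is absent from values with equal pair means. Leaving out any one pair raised the adjusted p to between 0.0512 and 0.135.

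Among 15 other HSF1 targets, 1 rose (CRYAB) and 0 fell by limma, 2 had an unadjusted p under 0.05, and the median log2 FC was 0.04. DNAJB1, an HSP70 partner and common HSF1 target named after its values were seen, came to a log2 FC of 0.12 ± 0.08 (SD over 4 pairs; adjusted p = 0.293 by limma).

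The other lists held no called gene by limma. Among 10 further HSP70 genes the log2 FC ranged from -0.19 to 0.15, and 3 had an unadjusted p under 0.05. The smallest belonged to HSPA2, a testis-rich HSP70, with a log2 FC of -0.06 ± 0.02 (SD over 4 pairs; adjusted p = 0.125 by limma) at a mean log2 value of 1.80. The 15 genes of the HSP90 family and its co-chaperones ranged from -0.23 to 0.09, with 1 such unadjusted p, for CDC37L1 (-0.23 ± 0.18, SD over 4 pairs; adjusted p = 0.177 by limma).

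For 9 other HSP70 nucleotide exchange factors and regulators the log2 FC ranged from -0.11 to 0.10, with 0 unadjusted p under 0.05. HSPBP1, an exchange factor, had the smallest p there, with -0.11 ± 0.23 (SD over 4 pairs; adjusted p = 0.587 by limma). Across 13 chaperonins, the ring-shaped folding chambers of cytosol and mitochondria, it ranged from -0.10 to 0.08. CCT5, a subunit of the cytosolic ring, was the 1 chaperonin with an unadjusted p under 0.05, at -0.10 ± 0.06 (SD over 4 pairs; adjusted p = 0.287 by limma).

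**Figure D5:**
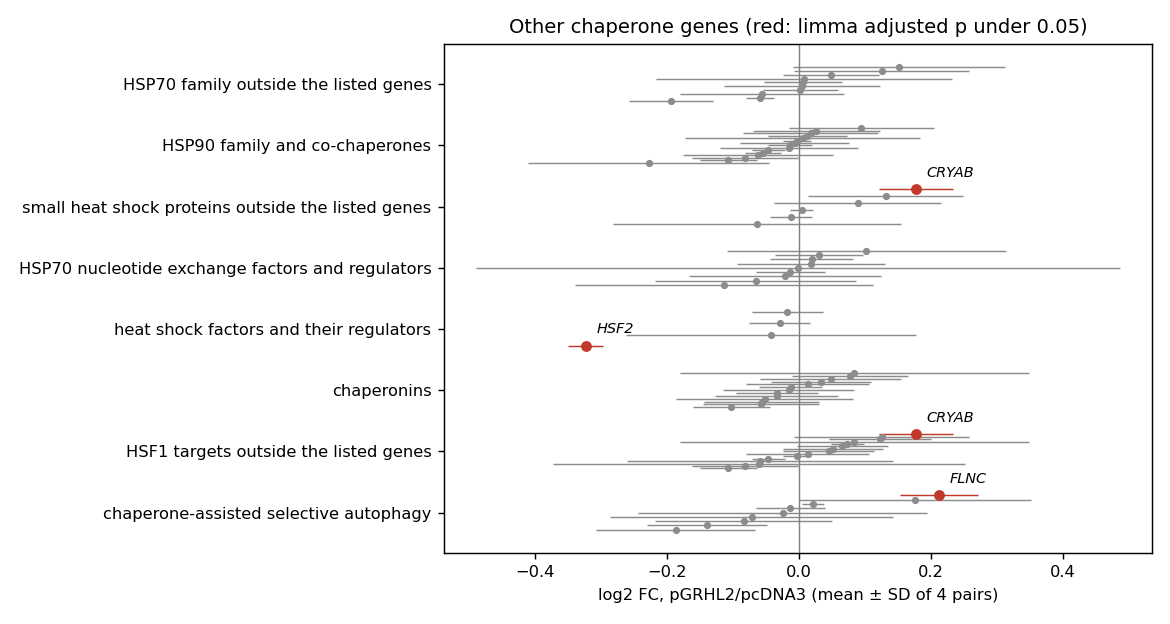
Log2 FC of pGRHL2 over pcDNA3 (points, mean; bars, SD of 4 pairs) for 72 further chaperone genes in 8 lists, with called genes in red (limma adjusted p under 0.05). CRYAB, which is in 2 lists, and FLNC lie to the right at 0.18 and 0.21, and HSF2 to the left at -0.32.

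The genes with the pattern most like HSPA6 were sought by Pearson r over the 8 libraries among 325 genes with a mean log2 value of at least 5 and an absolute log2 FC of at least 0.25. CLIC3, a chloride channel family member, was closest (r = 0.995), followed by GPNMB (0.994), a glycoprotein of lysosomes and melanosomes, the collagen crosslinking enzyme LOX (0.992), PIK3IP1 (0.988) and MFGE8 (0.988). Among the closest to HSPB8 were RBM47 (0.995), an RNA-binding protein, LRRC37A3 (0.990), COTL1 (0.989) and C6orf132 (0.987). HSPA6 and HSPB8 were not among the genes closest to each other. The 8 libraries form 4 mirrored pairs and every candidate differs between the plasmids, so r is given as a ranking only. Of these genes GPNMB had the largest log2 FC, 1.05 ± 0.15 (SD, n = 4 pairs). Its pair differences were lowest in pair 3 (0.90) and highest in pair 4 (1.24), as for HSPA6. That likeness is what it was picked for and is no separate result.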

How the data were processed

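RNA-seq of 8 HepG2 libraries was used, 4 for each plasmid, read as paired 150-base reads. Per the study's methods and the submitters' processing notes, reads were mapped to hg38 with HISAT2 (2.2.1 in the notes) and exon reads were counted without strand by HTSeq 0.9.1 (union mode, minimum alignment quality 10). The authors then removed genes with fewer than 10 reads in all, made regularised log values with DESeq2 (1.40.2 in the notes) and scaled them by mean transcript length. The deposited values were read as log2 values, since 3.71% lie below 0 and they are too large for a plain quotient by length, and means of same-numbered libraries had been made equal. The table has no counts, so sequencing depth is unknown and no counting interval or detection floor is given.

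Gene symbols matched GENCODE v44 for 99.9% of 17561 genes. One stray character was removed from a value, and 0 columns belonged to other samples. Differences were tested on the log2 values as deposited with limma 3.58.1 (R 4.3.3; eBayes with trend) over all genes, with the replicate number as a block and Benjamini-Hochberg adjustment, and called at an adjusted p under 0.05. The numbers pair the samples because the deposited means are equal within each number, which also leaves a correlation of deviations uninformative (each pair is a mirror). Errors are the SD of 4 pair differences. The heat shock genes were described with no test. The members and the gene lists were chosen with earlier results of these data known. Genes named outside the set were GRHL2, every called gene of a list (or its gene of smallest p), and the 5 genes most like HSPA6 and HSPB8. Transcript windows were placed on hg38 with minimap2 2.31-r1302. Scripts were tested on simulated data. Alternatives were no block, robust eBayes, array weights, median centring, a mean of at least 5, a stricter threshold, trends in GC content, length and level removed, and leaving out each pair. Protein sequences were not used here, and results for 2 further genes, one of them of a list, are not reported here.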

Additional observations from a re-analysis of the deposited data

Results flagged for a closer look

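Among 16 genes named above, the 4 pair differences of 2 held a value farther from the other 3 than Dixon's criterion allows at the 95% level; chance gives about 1 in 20. For HSPB1 the pair 3 difference was -0.2161, where pairs 1, 2 and 4 gave 0.22 to 0.29. CDC37L1, a relative of the HSP90 co-chaperone CDC37, had 0.0459 in pair 4 and -0.33 to -0.31 in pairs 1 to 3.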

How the results depend on the processing

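The numbers of genes called higher and lower depended on the fit. With no replicate block, which counts mirrored libraries as independent, 1821 genes were called higher and 1427 lower, and in the wider chaperone lists 6 and 8, in place of 297, 88, 2 and 1. Array weights gave 503 and 221. An adjusted p under 0.01 kept 77 and 10, and 1 and 0 in the lists. Restricting the fit to a mean of at least 5 gave 63 higher. In the lists it gave 0 higher, since CRYAB and FLNC, the only list genes called higher in the main fit, were then not tested. Removing trends gave 123 higher, with 0 in the lists. Leaving out each pair gave 79 to 156 higher and 8 to 68 lower, and 1 higher and 0 lower in the lists each time; fewer samples were then tested.

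The log2 FC of the 8 heat shock genes moved by less than the spread between pairs in 46 of 48 alternative values. Most of these values could not have moved further. Leaving out a pair cannot shift a mean of so few pairs by their SD. Median centring shifted every gene by the same amount, which was below each SD. The count is therefore no measure of stability, and only the values with trends removed could exceed the spread. Among those, HSPA8 and HSP90AA1 did so, at -0.02 and -0.06, and the cause was not tested. HSPA6 ranged from 1.37 to 1.63 and HSPB8 from 0.68 to 0.90. Their median over the set ranged from 0.02 to 0.06. None of the 8 heat shock genes had most of its windows shared with another locus, so the planned exclusion of such genes left none out. Weakly expressed genes are limited by the shrinkage of the deposited values.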
